A study of Mus musculus with 6 samples.

Results

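The accessible chromatin of 5 transcription factor genes tied to the fat cell lineage, Ebf1, Ebf2, Ebf3, Zfp423 and Zfp521, was examined in mouse brown pre-adipocytes by ATAC-seq, which reads out open DNA as the places where a transposase can insert adapters. A peak was taken as a member's when its summit lay inside the gene, or when an end of that gene was the nearest coding gene end within 100 kb. The 5 genes, of 21883 coding gene symbols, held 313 of the 192614 peaks in the 6 deposited peak lists. Merged across libraries wherever they overlapped by at least 1 bp, these peaks formed 118 of 68913 regions.

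Day 0 comprised 3 libraries of brown pre-adipocytes, labelled as wild type. Day 1 comprised 3 libraries taken after 1 day of brown adipocyte differentiation. All were of the cell line that the labels call BAT. No library used here is labelled as carrying the RUNX1 or RUNX2 deletion that the title of the series names. The genotype of the day 1 libraries, the differentiation agents and the origin of the line are not given in the sources used here. No label says if replicates were separate cultures, so the p-values below measure only the spread between libraries, which may be technical. In bulk chromatin, fewer cells with an open site and less opening per cell cannot be told apart.

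EBF1, EBF2 and EBF3 are early B cell factors, helix-loop-helix proteins that bind DNA as dimers. EBF2 marks committed brown pre-adipocytes and acts with PPARG at brown fat genes, and EBF1 serves B cell as well as fat cell development. ZFP423 is a zinc finger protein of committed pre-adipocytes that works with the SMAD proteins of BMP signalling and can bind EBF2 and restrain brown fat genes. ZFP521 is its close relative, which represses EBF1 and holds back fat cell formation.

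The libraries differed in depth. Day 0 libraries held 8127635 to 11011889 fragments and 39211 to 55511 peaks, and day 1 libraries 4919755 to 7302457 fragments and 12556 to 23274 peaks. Day 1 replicate 3 stood apart, with the most fragments of its day and the fewest peaks of all. Counts are therefore given for the lists as deposited and for equal lists, cut in every library to the 12556 peaks with the strongest q, the length of the shortest list. Against the labelled cell type, 4, 3 and 3 of 8 pre-adipocyte and fibroblast markers had a peak within 1 kb of a gene end at day 0 and 2, 2 and 1 at day 1. Of 9 brown adipocyte markers 3, 3 and 2 had one at day 0 and, at day 1, 1, 2 and 2, while Dlk1 and Ucp1 had no peak in any library. Of 5 B cell markers, which bear on a family named for that lineage, 1, 0 and 1 had such a peak at day 0 and 0 in each day 1 library, and Cd79a, Cd79b and Ms4a1 had none anywhere. The endothelial, other immune, muscle and neuronal marker lists had gene-end peaks at 1 of 6, 1 of 5, 0 to 1 of 5 and 2 to 3 of 4 genes at day 0, and at 0 to 1, 0, 0 and 0 to 1 at day 1. In the equal lists, 4 of 5 endothelial markers with a region had one called in every day 0 library and no day 1 library. So did 2 of 7 pre-adipocyte and fibroblast, 2 of 7 brown adipocyte and 1 of 2 neuronal markers. Of the other immune and muscle markers with a region, 0 did. Of all genes with a region, 13.2% did. The reverse held at 3 brown adipocyte markers only, and for 10.4% of all such genes. Peaks of lower rank may be present on the other day. Of all coding genes, 44.6% to 50.2% had a gene-end peak in a day 0 library and 31.9% to 42.0% in a day 1 library. The gene-end counts of so few markers do not establish the cell type. What part other cell types have in the results was not tested.

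Of the 5 promoter entries that RefSeq lists for 3 of the genes on GRCm38.p6, the assembly that mm10 names, the entry of Ebf3 was overlapped by an open region. That region, chr7:137314233-137314576, covered the listed transcript start at 137314445 and carried a peak in all 6 libraries. The window of the first Ebf1 start, at 44618100, began 297 bp beyond a region open in all 6 libraries, and that of the Zfp423 start at 87959595 lay 222 bp from a region with peaks in some libraries. The Ebf3 stretch below lies inside its open region. Those of Ebf1 and Zfp423 lie outside the regions named here and were cut around a motif match. Entries without a match are not shown. Capitals mark a match to an EBF, RUNX or C/EBP motif, and sequences run 5′ to 3′ on the gene's strand.

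Ebf3, chr7:137314446-137314576, minus strand, EBF motif: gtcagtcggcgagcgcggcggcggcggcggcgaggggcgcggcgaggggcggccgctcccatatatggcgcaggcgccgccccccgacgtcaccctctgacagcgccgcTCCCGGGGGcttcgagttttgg

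Ebf1, chr11:44618064-44618099, plus strand, RUNX motif: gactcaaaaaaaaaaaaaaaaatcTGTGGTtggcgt

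Zfp423, chr8:87959695-87959750, minus strand, C/EBP motif: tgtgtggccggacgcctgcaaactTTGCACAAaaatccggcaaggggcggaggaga

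The Ebf3 stretch, the part of its promoter entry that lies before the start and inside the open region, had a GC content of 77.9%. Its EBF match began 22 bases before the transcript start. The Ebf1 RUNX match began 12 bases before its start, and the Zfp423 C/EBP match 131 bases before its start. Windows from 250 bases before to 50 after every listed start were searched on both strands for TCCCNNGGG (EBF), TGTGGT (RUNX), TTGCNNAA (C/EBP) and TGANTCA (AP-1). Of 32851 promoters, 6.56%, 16.8%, 10.8% and 7.81% held a match, in that order. A second C/EBP match lay 22 bases after the same Zfp423 start, and no AP-1 match was found in the 5 windows. These matches describe letters and not binding.

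The first comparison asks how many peaks each gene had before and after 1 day of differentiation. Ebf1 had 29, 26 and 24 peaks at day 0 and 13, 11 and 3 at day 1, with means of 26.3 ± 2.52 and 9 ± 5.29 (SD, n = 3 each, exact permutation p = 0.1). The days did not overlap, and p = 0.1 is the smallest value that exact two-sided permutation of 3 libraries against 3 can give. Ebf2 had 17, 15 and 11 peaks at day 0 and 5, 9 and 4 at day 1, means of 14.3 ± 3.06 and 6 ± 2.65 (SD, n = 3 each, exact permutation p = 0.1). Its days did not overlap either. Ebf3 had 6, 5 and 3 peaks against 2, 6 and 1, means of 4.67 ± 1.53 and 3 ± 2.65, a difference within the spread of the libraries (SD, n = 3 each, exact permutation p = 0.5).

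Among the zinc finger genes, Zfp521 had the larger ratio between the days. It had 19, 15 and 13 peaks at day 0 and 2, 7 and 2 at day 1, means of 15.7 ± 3.06 and 3.67 ± 2.89 and a ratio of 4.27 (SD, n = 3 each, exact permutation p = 0.1). Zfp423 had 17, 13 and 11 against 8, 11 and 5, means of 13.7 ± 3.06 and 8 ± 3 (SD, n = 3 each, exact permutation p = 0.2). The days met at 11 peaks for Zfp423, whereas those of Zfp521 were apart. The Zfp521 difference of −12 peaks was −6.33 with a flank of 50 kb and −6 inside the gene alone, and that of Ebf2, −8.33 peaks, was −5.33 inside the gene alone. The Zfp521 ratio of 4.27 applies to the flank of 100 kb and was smaller inside the gene. There Zfp521 had 3.27 peaks per 100 kb at day 0 and 1.17 at day 1. Ebf1 had 5.21 and 1.88, Ebf2 4.22 and 1.52, Ebf3 3.61 and 2.07, and Zfp423 4.108 and 2.33. Thus 3 of the 5 genes had every day 0 library above every day 1 library. Among the 6892 genes with at least 10 peaks summed over the libraries, 55.1% did, so the members' count is close to that of genes in general.

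**Figure D1:**
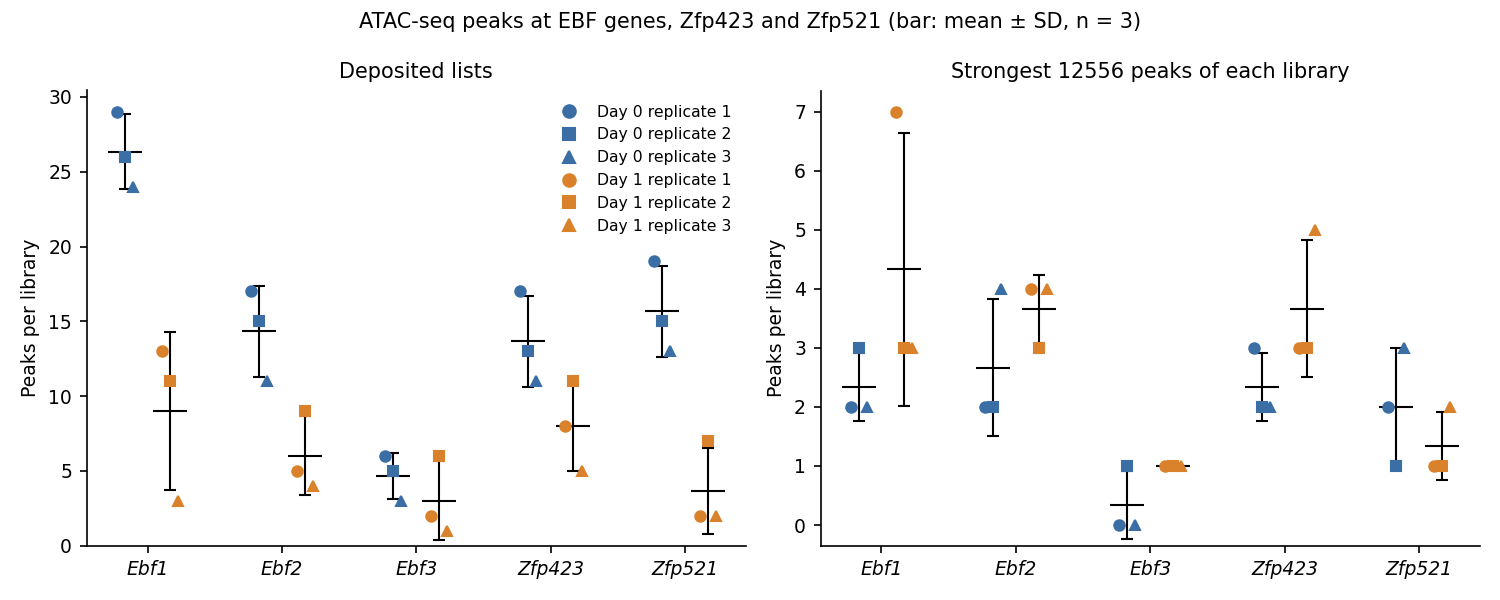
Number of ATAC-seq peaks (y axis) assigned to each gene (x axis) in each library, for the deposited lists (left) and for the 12556 strongest peaks of each library (right); blue points are day 0, orange points day 1, shapes are replicate numbers, and black lines are the mean and SD of 3 libraries. In the deposited lists Zfp521 has 13 to 19 peaks at day 0 and 2 to 7 at day 1, while Zfp423 has 11 to 17 and 5 to 11.

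Summed over the 5 genes, the day 0 libraries had 88, 74 and 62 peaks and the day 1 libraries 30, 44 and 15. Their means, 74.7 ± 13.0 and 29.7 ± 14.5 (SD, n = 3 each), stood in a ratio of 2.52. The whole lists shortened to about the same degree. Per 1000 peaks of the library, the 5 genes took 1.59, 1.76 and 1.58 at day 0 and 1.49, 1.89 and 1.19 at day 1, ranges that overlapped. Per 1000000 fragments they took 7.99, 9.10 and 6.77 against 6.10, 7.85 and 2.05, which overlapped as well. The DNA under the members' peaks was 22.4 ± 6.98 kb at day 0 and 8.61 ± 5.10 kb at day 1 (SD, n = 3 each).

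Relative to the length of each list, the days were ordered in opposite ways at Zfp423 and Zfp521. Zfp423 took 0.306, 0.310 and 0.281 of every 1000 peaks at day 0 and 0.399, 0.473 and 0.398 at day 1 (means 0.299 ± 0.0159 and 0.423 ± 0.0428, SD, n = 3 each, exact permutation p = 0.1). Each day 1 library exceeded each day 0 library, which held for 19.8% of genes with at least 10 peaks. Zfp521 took 0.342, 0.357 and 0.332 at day 0 and 0.0997, 0.301 and 0.159 at day 1 (means 0.344 ± 0.0129 and 0.187 ± 0.103, SD, n = 3 each, exact permutation p = 0.1). Here each day 0 library exceeded each day 1 library, as for 15.8% of those genes. Separation of the days, in either direction, was thus common among genes in general on this scale. The opposite orders at Zfp423 and Zfp521 are therefore not shown to be particular to this pair. Neither p passed 0.05, which this design cannot reach. Per 1000000 fragments, Zfp521 gave 1.73, 1.85 and 1.42 at day 0 and 0.407, 1.25 and 0.274 at day 1, and Zfp423 gave 1.54, 1.60 and 1.20 against 1.63, 1.96 and 0.685. The separation of Zfp521 was thus present on the fragment scale too, and that of Zfp423 was not. How many genes in general had the days apart on the fragment scale was not counted. This separation is therefore not shown to be particular to Zfp521. The Zfp521 separation depended on the flank of 100 kb. With a flank of 50 kb, or inside the gene alone, the days of Zfp521 overlapped on both scales.

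The shares of the 3 EBF genes overlapped between the days. Ebf1 took 0.585 ± 0.0539 and 0.453 ± 0.205 of every 1000 peaks at day 0 and day 1 (SD, n = 3 each, exact permutation p = 0.4). The value of day 1 replicate 3, 0.239, was the lowest of the 6 for Ebf1, and that of day 1 replicate 1, 0.648, the highest. Ebf2 took 0.315 ± 0.0390 and 0.318 ± 0.0688 (SD, n = 3 each, exact permutation p = 1), and Ebf3 0.101 ± 0.0221 and 0.146 ± 0.0976 (SD, n = 3 each, exact permutation p = 0.8). With 3 libraries per day these values do not show that the shares were alike.

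**Figure D2:**
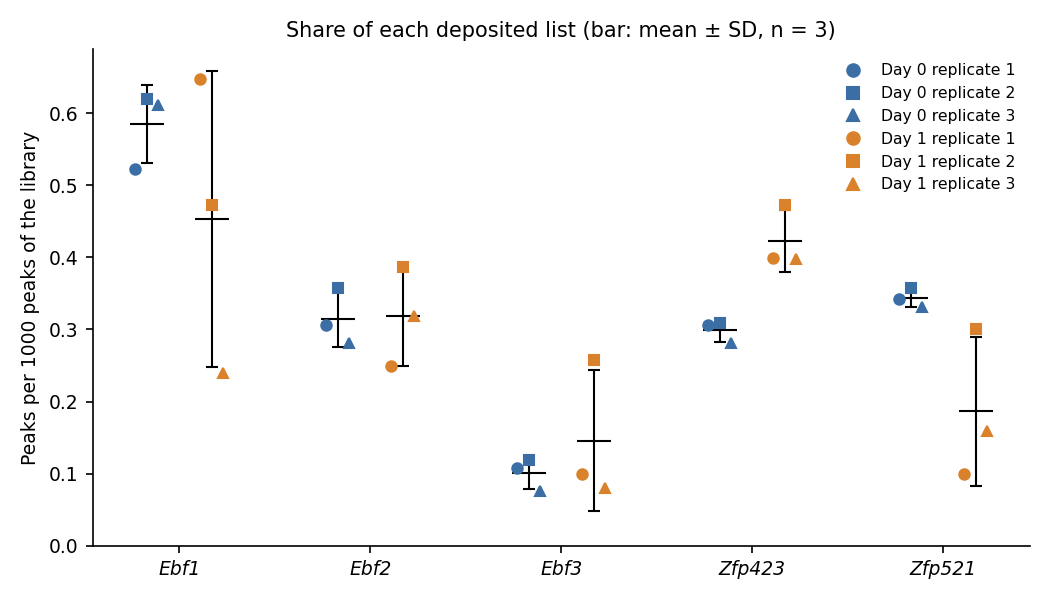
Peaks of each gene per 1000 peaks of the same library (y axis) for the 5 genes (x axis) in the deposited lists; blue points are day 0, orange points day 1, shapes are replicate numbers, and black lines are the mean and SD of 3 libraries. Zfp423 lies at 0.281 to 0.310 at day 0 and 0.398 to 0.473 at day 1, Zfp521 at 0.332 to 0.357 and 0.0997 to 0.301, and the EBF genes overlap between the days. Values use the flank of 100 kb, on which the separation of Zfp521 depends.

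Set against each other, a quantity chosen after the values had been seen and given without a test, Zfp423 held 47.2%, 46.4% and 45.8% of the peaks of the 2 zinc finger genes at day 0 and 80%, 61.1% and 71.4% at day 1. The day 1 minus day 0 difference, 24.4 points, was 13.7 points with a flank of 50 kb and 11.9 points inside the genes alone. In the equal lists Zfp423 held 60%, 66.7% and 40% at day 0 and 75%, 75% and 71.4% at day 1. These equal-list percentages rest on 3 to 7 peaks per library. Their difference, 18.3 points, became −25.6 points when only peaks with a −log10 q of at least 5 were ranked.

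In the equal lists the members were few and the order of the days differed. Ebf1 had 2, 3 and 2 peaks at day 0, against 7, 3 and 3 at day 1, a difference within the spread (n = 3 each, exact permutation p = 0.3). Ebf2 had 2, 2 and 4 against 4, 3 and 4 (n = 3 each, exact permutation p = 0.4), and Ebf3 0, 1 and 0 against 1, 1 and 1 (n = 3 each, exact permutation p = 0.4). Zfp423 had 3, 2 and 2 against 3, 3 and 5 (n = 3 each, exact permutation p = 0.3), and Zfp521 2, 1 and 3 against 1, 1 and 2 (n = 3 each, exact permutation p = 0.7). Every gene overlapped between the days. Of the 4 members with at least 10 peaks over the equal lists, 0 had every day 1 library above every day 0 library, against 9.75% of 2061 such genes. All 5 together had 9, 9 and 11 peaks at day 0 and 16, 11 and 15 at day 1. The 3 EBF genes together had 4, 6 and 6 against 12, 7 and 8, which did not overlap. The nearest values were 6 and 7 peaks, and this sum was not compared with other sets of 3 genes.

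The second comparison asks which regions were called on 1 day and not on the other. Regions called in all 3 day 0 libraries and in 0 day 1 libraries are named day 0 only here, and those called in the reverse way day 1 only. In the deposited lists 23 of the 118 member regions (19.5%) were day 0 only, against 17.5% of all regions, and 1 (0.847%) was day 1 only, against 0.607%. Both shares were near those of the whole lists. Peaks in all 6 libraries were found at 9 member regions (7.63%), against 13.3% of all regions. The other 85 had some other combination, among them 41 with a peak in 1 library only (34.7% of member regions, beside 35.0% of all regions). No day 1 peak was present at 69 regions and no day 0 peak at 15, beside 59.0% and 8.79% of all regions.

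The 23 day 0 only regions comprised 10 of the 37 regions of Ebf1, 6 of the 24 of Zfp521, 3 of the 19 of Ebf2, 3 of the 27 of Zfp423 and 1 of the 11 of Ebf3. Most member regions lay inside a gene, 90 of 118. Exons and introns are not listed in the gene table used. Without day 1 replicate 3, the deposited lists held 116 member regions, of which 23 (19.8%) were day 0 only and 5 (4.31%) were day 1 only, against 18% and 1.72% of all regions. The 5 comprised 2 of Zfp423 and 1 each of Ebf1, Ebf2 and Ebf3.

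**Figure D3:**
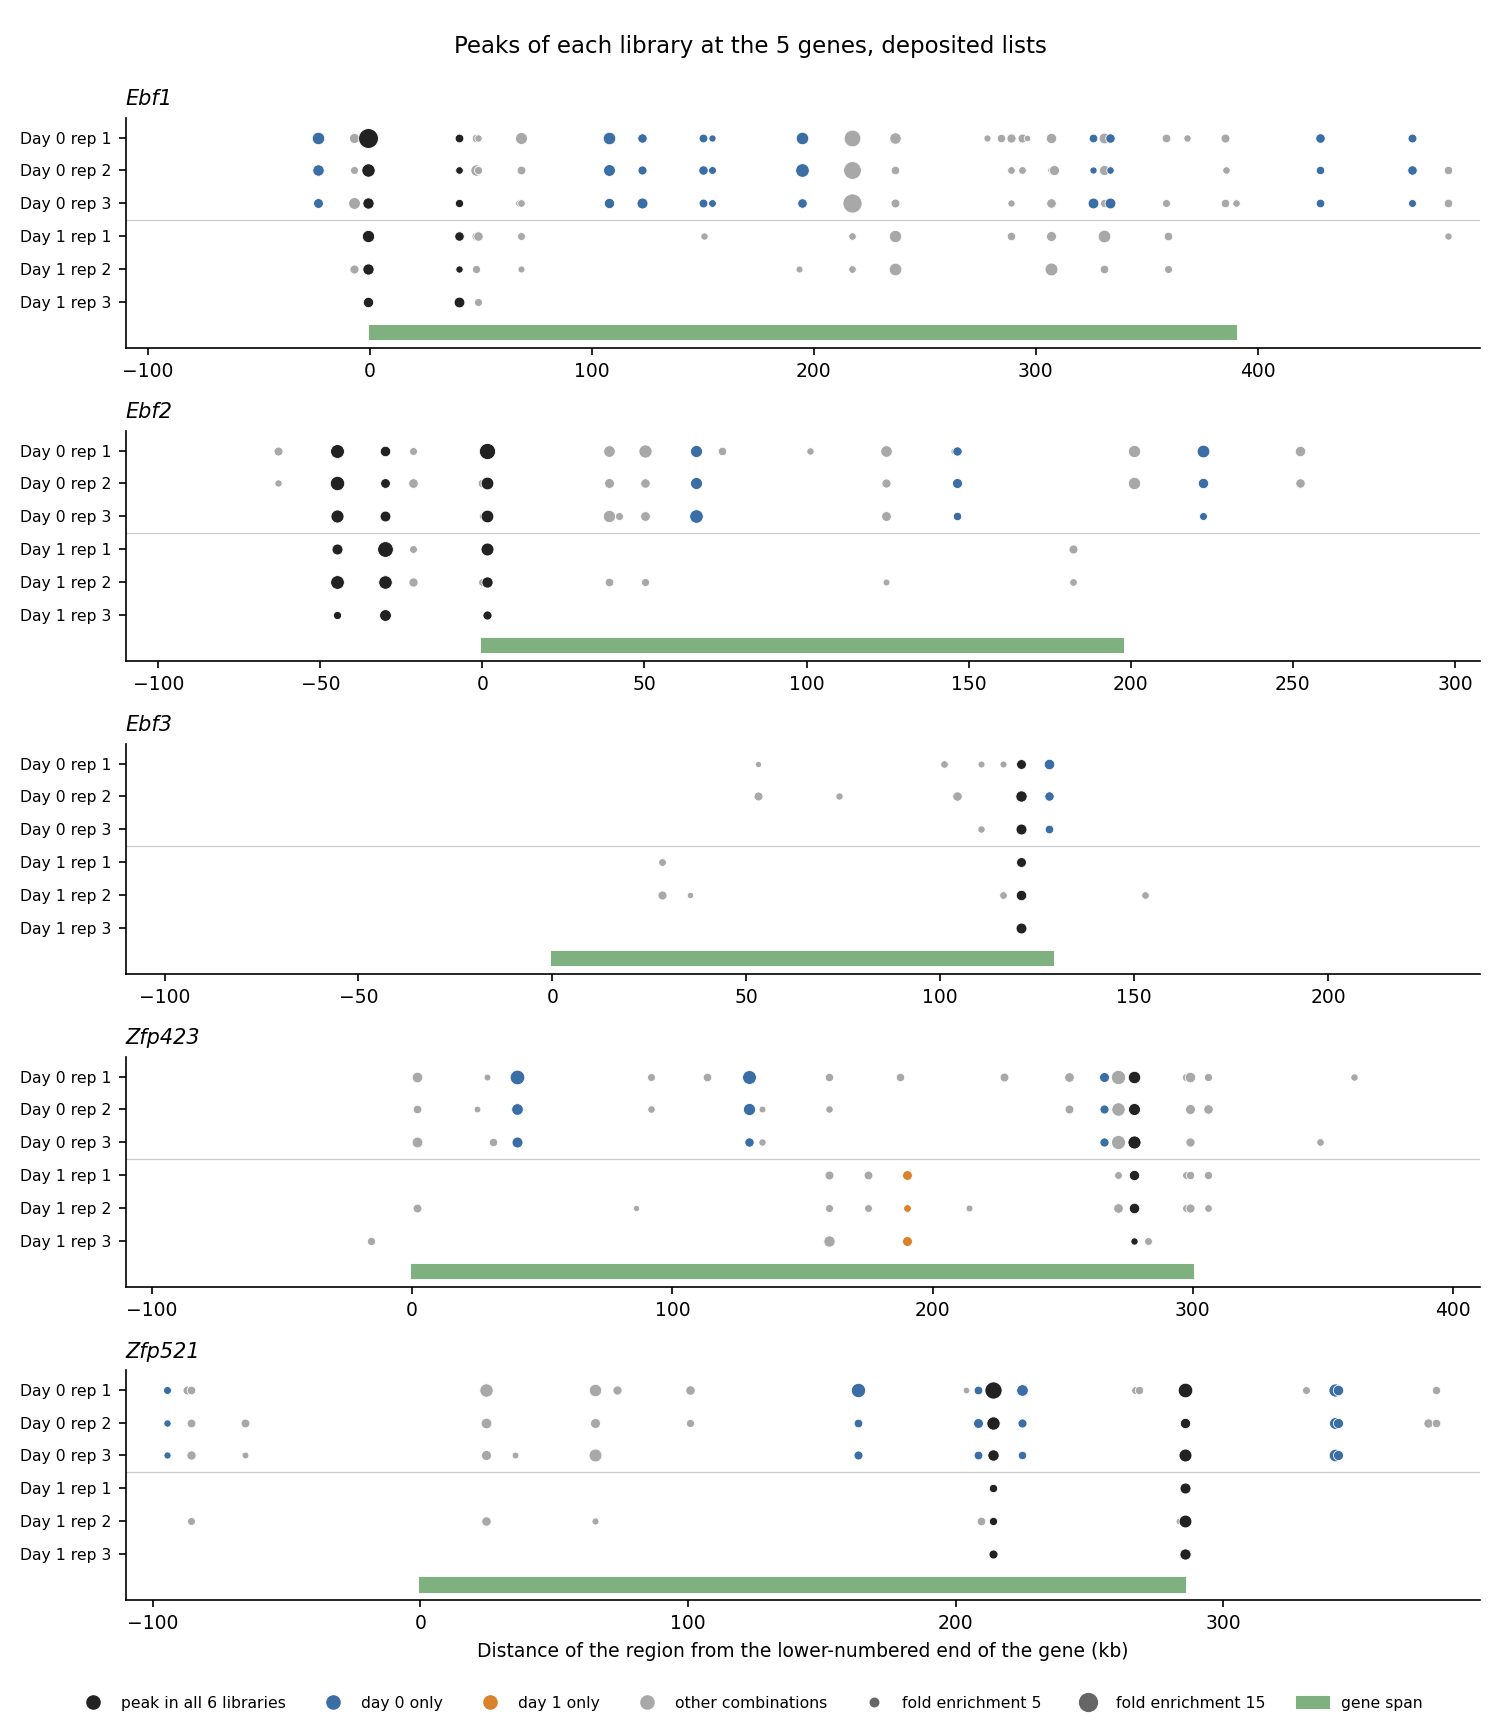
Peaks of the deposited lists along each gene, with the distance of the merged region from the lower-numbered end of the gene in kb on the x axis, 1 row per library on the y axis, point size growing with the authors' fold enrichment, and the gene drawn as a green bar. Black regions carry a peak in all 6 libraries, blue regions are day 0 only, the orange region in Zfp423 is day 1 only, and the rows of day 1 hold fewer points, fewest in replicate 3.

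Ebf1, on chromosome 11 from 44618100 to 45008096, had the most peaks of the 5 genes at day 0. A region just before the gene, chr11:44616904-44617553, 0.921 kb from its end, was open in all libraries. Fold enrichment, the authors' ratio of the fragment pileup at the summit to the local background and used here to describe and not to test, was 17.8, 10.9 and 8.68 at day 0 and 9.79, 8.68 and 7.80 at day 1. The region inside Ebf1 at chr11:44658038-44658483, 40.1 kb from the gene end, was also called in all libraries, with fold enrichments of 5.96, 4.78 and 5.51 at day 0 and 6.75, 4.45 and 8.16 at day 1. The days overlapped at both regions.

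The 3 strongest day 0 only regions of Ebf1 in the deposited lists were chr11:44812348-44812675 and chr11:44725841-44726103 inside the gene and chr11:44594825-44595093, 23.2 kb outside it. Their mean fold enrichments were 9.35 ± 2.25, 9.03 ± 1.19 and 8.68 ± 1.41 (SD, n = 3 each). The highest mean fold enrichment of Ebf1 at day 0 belonged to another region, chr11:44835088-44835704, 173 kb inside the gene, with 14.5, 15.6 and 17.1. At day 1 it had 4.77 and 4.77 in replicates 1 and 2 and no peak in replicate 3. It was the only day 0 only member region of the equal lists. Of the 37 Ebf1 regions, 5 were called in every library except day 1 replicate 3, beside 2 of the 27 Zfp423 regions, 0 of the other 3 genes and 4.84% of all regions.

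Ebf2, on chromosome 14 from 67233292 to 67430952, had 3 regions open in all libraries, 1 just inside and 2 beyond its lower-numbered end. The region at chr14:67234408-67234834, 1.27 kb inside, had fold enrichments of 13.99, 10.3 and 10.2 at day 0 and 10.5, 8.62 and 6.36 at day 1. At chr14:67188442-67189201, 44.7 kb outside, day 0 gave 11.49, 12.0 and 10.6, against 8.35, 11.3 and 5.39 at day 1. The days overlapped at both.

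Between these lay chr14:67202844-67203426, 30.0 kb from the gene, where the order was the other way round. Fold enrichment was 7.88, 7.06 and 8.22 at day 0 and 13.4, 11.1 and 9.21 at day 1, so that each day 1 library lay above each day 0 library. The pileup at the summit per 1000000 fragments was 1.45, 1.35 and 1.42 at day 0 and 5.08, 3.57 and 2.33 at day 1, again without overlap. Over all 9136 regions open in all libraries, median fold enrichment was 12.3, 11.4 and 10.6 at day 0 and 9.04, 9.66 and 7.39 at day 1. The median pileup per 1000000 fragments over those regions was 3.86, 3.94 and 2.62 at day 0 and 3.66, 3.93 and 1.78 at day 1. This Ebf2 region was thus higher at day 1 while the median region was lower in fold enrichment, and it was the only day 1 only member region of the equal lists. How many of the 9136 regions had the days apart in either direction was not counted. The day 0 only regions of Ebf2 in the deposited lists were chr14:67299006-67299370 and chr14:67379505-67379782 inside the gene and chr14:67455509-67455783 beyond it, with mean fold enrichments of 10.1 ± 0.939, 6.56 ± 0.844 and 7.71 ± 2.53 (SD, n = 3 each).

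Ebf3, on chromosome 7 from 137193671 to 137322805, had the fewest regions. Its region over the listed start, shown above by its sequence, had fold enrichments of 7.15, 8.74 and 8.34 at day 0 and 7.22, 7.86 and 8.25 at day 1, values that overlapped. Its only day 0 only region, chr7:137321501-137321773, 1.18 kb from the gene end, had fold enrichments of 7.94, 6.71 and 5.88. Of its 11 regions, 5 (45.5%) had a peak in a single library, beside 44.4% for Zfp423, 41.7% for Zfp521 and 35.0% of all regions.

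Zfp423, on chromosome 8 from 87661810 to 87962053, held the only day 1 only member region of the deposited lists, chr8:87851716-87852194, 110 kb inside the gene. Its fold enrichments at day 1 were 7.08, 4.92 and 7.24. The region of Zfp423 open in all libraries, chr8:87938343-87939450, had 9.94, 9.52 and 10.6 at day 0 and 7.70, 7.88 and 4.45 at day 1, each day 0 library above each day 1 library. Median fold enrichment over the 9136 regions open in all libraries was ordered in the same way. In pileup per 1000000 fragments the Zfp423 region had 3.996, 3.81 and 3.28 against 3.46, 3.57 and 1.10, which overlapped. The day 0 only regions of Zfp423 were chr8:87701817-87703017, chr8:87791018-87791483 and chr8:87927460-87927751, all inside the gene, with mean fold enrichments of 9.92 ± 2.11, 9.28 ± 2.45 and 6.68 ± 0.548 (SD, n = 3 each). Called sites of both days were thus present within this gene.

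Zfp521, on chromosome 18 from 13687013 to 13972749, had 2 regions open in all libraries. At chr18:13900608-13901206, 72.0 kb inside the gene, fold enrichment was 14.997, 10.8 and 8.78 at day 0 and 5.58, 5.47 and 6.30 at day 1, without overlap. Its pileup per 1000000 fragments, 4.09, 3.45 and 1.86 at day 0 and 1.63, 1.61 and 1.23 at day 1, did not overlap either. At the upper end of the gene, chr18:13972382-13973077, fold enrichment was 12.2, 7.74 and 10.4 at day 0, and the day 1 values of 8.39, 10.3 and 8.56 overlapped it. Within Zfp521, then, the days overlapped at the gene end and were apart at the inner region, which was lower at day 1. Median fold enrichment over the 9136 regions open in all libraries was also lower in each day 1 library than in each day 0 library. This order in fold enrichment is thus not particular to the inner region. How many of the 9136 regions had the days apart in pileup per 1000000 fragments was not counted. The pileup separation is therefore not shown to be particular to it either. The 3 strongest of the 6 day 0 only regions of Zfp521 were chr18:14028394-14028716 (mean fold enrichment 10.1 ± 0.617), chr18:13850394-13850779 (8.05 ± 3.42) and chr18:14029487-14029794 (7.57 ± 0.257, SD, n = 3 each). The first and the last of these lay 55.8 and 56.9 kb beyond the gene.

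**Figure D4:**
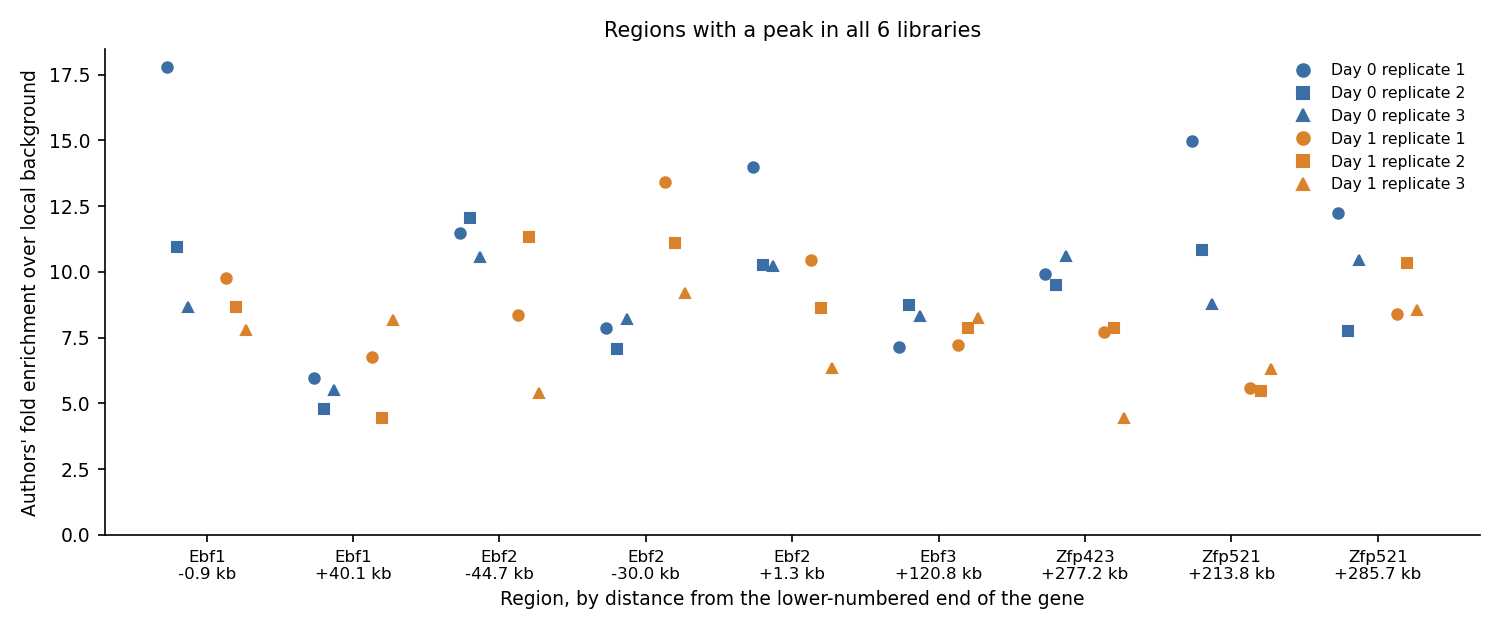
The authors' fold enrichment over local background (y axis) in each library at the 9 member regions with a peak in all 6 libraries (x axis, by distance in kb from the lower-numbered end of the gene); blue points are day 0, orange points day 1, and shapes are replicate numbers. The Ebf2 region 30.0 kb outside the gene is the one with all day 1 points, 9.21 to 13.4, above all day 0 points, and the inner Zfp521 region has all day 1 points, 5.47 to 6.30, below all day 0 points.

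In the equal lists the 5 genes had 28 of 23438 regions. Of these 1 (3.57%) was day 0 only and 1 day 1 only, the Ebf1 and Ebf2 regions described above, against 9.11% and 5.71% of all regions. Each had weaker peaks on the other day, so the class marks a lower rank there and not a lack of signal. Without day 1 replicate 3, with lists lengthened to 20069 peaks, 4 of 56 member regions were day 0 only (7.14%, against 10.8% of all) and 10 were day 1 only (17.9%, against 8.49%). Zfp423 held 5 of the 10, Ebf1 and Ebf2 2 each, Ebf3 1 and Zfp521 0. The Zfp423 regions lay at chr8:87821689-87822024, chr8:87836819-87837068, chr8:87851716-87852194, chr8:87958850-87959233 and chr8:87967218-87967698. Fold enrichments in day 1 replicates 1 and 2 ranged from 4.81 to 7.08 over these Zfp423 regions, and all but the last lay inside the gene. In the deposited lists the first and the last of them had peaks in 2 day 0 libraries and the fourth in 1. For these the class again marks a lower rank at day 0. With that library left out, day 1 only required 2 libraries and day 0 only 3, for members and all regions alike.

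The third comparison asks where the members' peaks lay within the genes. The gene end, meaning the stretch within 1 kb of either annotated border, carried a peak in all libraries at Ebf1 and Zfp521, in all 3 day 0 and 1 day 1 library at Ebf2, and in none at Ebf3 and Zfp423. The listed Ebf3 start lies inside the annotated gene, so its open region there is not counted as a gene end. Of all coding genes, 44.6% to 50.2% had a gene-end peak in a day 0 library and 31.9% to 42.0% in a day 1 library. Of the members' peaks, 3.41%, 4.05% and 6.45% lay at a gene end at day 0 and 6.67%, 6.82% and 13.3% at day 1, beside 23.9 ± 2.52% and 42.8 ± 6.87% of all peaks (SD, n = 3 each). The day 1 values rest on 2 or 3 peaks per library. In the equal lists, the members' share was 22.2%, 11.1% and 18.2% at day 0, and the day 1 values of 12.5%, 18.2% and 13.3% overlapped it.

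Peaks were dense inside all 5 genes. Ebf1 had 5.21 ± 0.900 peaks per 100 kb of gene at day 0 and 1.88 ± 1.21 at day 1, Ebf2 4.22 ± 0.773 and 1.52 ± 1.34, and Ebf3 3.61 ± 1.18 and 2.07 ± 1.61 (SD, n = 3 each). Zfp423 had 4.108 ± 0.838 and 2.33 ± 0.999, and Zfp521 3.27 ± 0.808 and 1.17 ± 0.808 (SD, n = 3 each). The median over 2428 coding genes of at least 100 kb was 1.77 at day 0 and 0.534 at day 1. By density, Ebf1 exceeded 90.5% of those long genes at day 0 and 88.5% at day 1. Zfp423 exceeded 82.7% and 93.7%, Ebf3 77.3% and 91.0%, Ebf2 83.8% and 83.0%, and Zfp521 73.2% and 74.1%. Ranked by mean number of assigned peaks among all coding genes, Ebf1 stood at 13 at day 0 and 21 at day 1, Zfp521 at 150 and 589, Ebf2 at 201 and 124, Zfp423 at 226 and 40, and Ebf3 at 2418 and 982. In the order of density, Ebf1 and Ebf2 at day 0 differed by more than 1 SD, and all other neighbours by less.

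The genes most like each member were those whose peak numbers in the 6 deposited lists were nearest by Euclidean distance. For Ebf2 these were Atp10a, Gipc2 and Runx2, at distances of 2.83, 3.16 and 3.32 peaks. Runx2, one of the genes in the title of the series, had 18, 15 and 10 peaks at day 0 and 7, 8 and 2 at day 1. Zfp521 was nearest to Rxra, Xylt1 and Dlg2 (2.45, 2.83 and 3), Zfp423 to genes that included Sybu and Adam12 (2.65 and 3.87), Ebf3 to Apbb1ip, Taf3 and Thoc7 (1.41 each), and Ebf1 to Asap1, Mast4 and Ppm1h (6.56, 6.56 and 6.78). Likeness in peak number says nothing of where the peaks lie.

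Known partners and targets of these factors were followed as lists. Ebf4, the remaining family member, had 1 peak in each day 0 library and 0 at day 1. Of 13 regulators and targets of the brown fat fate, 12 had a region in the equal lists, of which 3 had a day 0 only region and 5 a day 1 only region, beside 13.2% and 10.4% of all 11844 genes with a region. Pparg, which encodes the master regulator of adipogenesis, had 2 day 0 only and 1 day 1 only region, Tle3, a corepressor of brown fat genes, 2 day 0 only, and Cebpd 1 day 0 only. Zfp516, an activator of brown fat genes, had 3 day 1 only regions, and Ehmt1, Smarca4 and the coactivator gene Ppargc1a 1 each. In the deposited lists 12 of the 13 genes had a region, of which 9 had a day 0 only region and 0 a day 1 only region, beside 38.8% and 2.48% of all 15627 genes with a region there. These shares cover genes of any peak number, and a gene with more regions has more chances to hold such a region. A day 1 only region of the equal lists can have weaker peaks at day 0.

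Of 12 genes for BMP and SMAD partners of ZFP423, 5 had a region in the equal lists, 2 of them a day 0 only region and 1 a day 1 only region. Of all 11844 genes with a region there, 13.2% and 10.4% had one. In these lists the regions fell at 2 genes. Acvr1, which encodes a BMP type I receptor, had both, and Ccn5, whose product can hold ZFP423 in the cytoplasm, had the other day 0 only region. Acvr1 had 14, 13 and 12 peaks at day 0 and 7, 6 and 5 at day 1, and Ccn5 7, 6 and 5 against 2, 4 and 1. Smad1 and Smad4, which encode signal transducers of the pathway, and Ccn5 had a gene-end peak in all libraries. Of 11 corepressor genes, including those of the NuRD complex that ZFP521 recruits, 9 had a region in the equal lists, with 0 day 0 only and 0 day 1 only, and 7 of the 11 had a gene-end peak in all libraries. The share of all coding genes with a gene-end peak in all libraries was not counted. In the deposited lists, 3 of 9 corepressor genes with a region had a day 0 only region and 0 a day 1 only region. There 6 of the 12 BMP and SMAD genes had a day 0 only region and 1 a day 1 only region. The shares over all 15627 genes with a region were 38.8% and 2.48%.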

How the data were processed

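ATAC-seq peak lists of 6 libraries, 3 at day 0 and 3 at day 1, were used. The submitters' processing notes name the build mm10 and, with no step given, HOMER 4.11, DiffBind 3.8.4, MACS2 2.2.7.1, deepTools 3.5.1, SAMtools 1.15.1, Bowtie2 2.4.4 and Trim Galore 0.6.7. Peaks were called per library with MACS2 2.2.7.1 on paired-end fragments, without a control, at a q cutoff of 0.05, with a local background over 10000 bp and at most 1 fragment per position, per the file headers. The deposited pileup is a signal in whole fragments at the summit, not scaled to depth. The deposited −log10 p and −log10 q columns compare it with the background within a library. The authors' fold enrichment is a ratio of pileup to that background and varies with depth. Peak width is in bp, per the file headers.

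Fragment totals were read from the headers. Gene spans of GRCm38.p6 came from a RefSeq table without strand or exons, and promoter sequences from RefSeq. Differences between day means were tested by exact two-sided permutation over 6 libraries (smallest p 0.1), with no adjustment over genes. Sums over the 5 genes and region classes are described without a test. Alternatives were flanks of 50 kb or 0 kb, −log10 q of at least 5, other list lengths and rankings, 50% coverage, bins of 500 bp, other class rules, leaving out each library, and a replicate block. No label says if libraries of the same number are paired. The correlations of their deviations, −0.0365, 0.0544 and 0.00808, are too few to decide it. All members were named, and of the 3 genes most like each member 1 is not reported here. Regions named were the up to 3 per gene and class with the highest mean fold enrichment, with further regions of Ebf1, Ebf2 and Zfp423 in the lengthened lists named after their values were seen. The members and the lists of partner and marker genes were chosen with earlier results of these data known. Scripts (Python 3.11.15, numpy 2.4.6, pandas 2.3.3) were tested on simulated data.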

Additional observations from a re-analysis of the deposited data

How the results depend on the processing

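Absence of a peak depends on depth, which was lower at day 1, and the equal lists leave 0 to 7 peaks per gene and library, so changes of 1 or 2 peaks decide their order. No test could pass 0.05 in this design, so only direction and size were compared. In deposited lists each member's difference in peak number kept its direction under 10 of 10 alternatives. None of these scaled a single gene's count to depth or list length, so they do not test that dependence. Per 1000 peaks the difference was 0.00348 for Ebf2, 0.0445 for Ebf3 and 0.124 for Zfp423. It stayed negative for Ebf1 (−0.131) and Zfp521 (−0.157). Per 1000000 fragments it was 0.0422 for Ebf3 and negative for the other members. Over all 5 genes the difference in peak number was −45 peaks, and leaving out 1 library gave −52.2 to −37.7. The difference in gene-end share, 4.30 points, ranged from 2.10 (without day 1 replicate 3) to 5.44 with 1 library left out and was 10.5 at a −log10 q of at least 5. That of the equal lists, 4.33 peaks, ranged from 3.33 to 5.83 with 1 library left out, and was 2.67 at a −log10 q of at least 5 and 10.2 with lengthened lists without day 1 replicate 3.

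The difference in peaks per 1000 peaks, −0.116, reversed to 0.0597 with a flank of 50 kb and to 0.0498 without day 1 replicate 3, and ranged from −0.298 to 0.0498 when 1 library was left out. Day 0 only regions of the deposited lists were 38 when at least 2 of 3 libraries sufficed, and 23 to 33 with 1 library left out. Day 1 only regions there were 0 at a −log10 q of at least 5, 0 at 50% coverage, 0 in 500 bp bins and 5 with at least 2 of 3 libraries, and 1 to 5 with 1 library left out. Day 0 only regions of the equal lists were 2 at a −log10 q of at least 5, 0 with lists shortened to N divided by 2, 4 with lengthened lists without day 1 replicate 3, 2 at 50% coverage and 0 with no peak of any strength at day 1, and 1 to 2 with 1 library left out (2 without day 1 replicate 2). Day 1 only regions of the equal lists were 0 inside genes alone, 2 at a −log10 q of at least 5, 2 with shortened lists, 2 ranked by fold enrichment, 10 with lengthened lists, 7 with at least 2 of 3 libraries and 0 with no peak of any strength at day 0. With 1 library left out they were 1 to 4, with 2 without day 0 replicate 2 and 4 without day 1 replicate 2 or 3.

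Single genes of the equal lists also reversed. The difference was −0.333 peaks for Ebf2 inside the gene alone, −0.667 for Zfp423 and 0.333 for Zfp521 at a −log10 q of at least 5, and 0.667 for Zfp521 with shortened lists, while the Zfp423 percentage changed to −25.6 points at a −log10 q of at least 5. The causes of these changes were not tested.

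With the replicate block the differences were the same by construction (−45 peaks, −0.116 per 1000, 4.30 points and 4.33 peaks). Its smallest exact sign-flip p is 0.25, so no call changed. Of 3 numbers, 1 had its highest correlation with its own partner, and 3 numbers are too few to decide if the libraries were paired.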
